A study of Mus with 8 samples.

Results

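Lin-Sca1+Kit+ cells (LSK, a sorted fraction enriched in blood stem cells and early progenitors) of newborn mice were compared between 2 libraries, 1 labelled Ifnar-/- and 1 labelled Ifnar+/-. Members were all barcodes of these libraries with at least 7500 gene UMI and at most 10% of them from mitochondrial genes. This gave 8593 cells of the 35549 that the same rule found in the 8 libraries of the series, 3471 of them Ifnar-/- and 5122 Ifnar+/-. All genes and the 10 antibody tags were read.

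The series addresses how interferon acts on blood formation around birth. It used CITE-seq, which counts RNA and the tags of surface antibodies in the same single cells, in LSK and in Lin-Kit+ cells (LK, a broader mixture of progenitors) at birth (P0) and at 14 days (P14). The comparison group was heterozygous, so it too carried 1 altered copy of the receptor gene. The labels give age, sorted fraction and genotype; they name neither the organ nor the allele, strain or number of mice in a library.

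Type I interferons are small secreted proteins that signal through 1 receptor made of the chains IFNAR1 and IFNAR2. The kinases JAK1 and TYK2 then act on STAT proteins, which together with IRF9 enter the nucleus and switch on antiviral genes. Blood stem cells respond to this signal, and Sca1, the protein used to sort LSK cells, is the product of an interferon-responsive gene, Ly6a. The sorting gate therefore read a protein whose RNA differed between the genotypes, and its part in the shares of LSK cells was not tested.

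With 1 library on each side there is no spread between replicates, and no test between genotypes was made. Differences are log2 ratios of CPM, the UMI of a gene summed over the library's cells and scaled to their total gene UMI, Ifnar-/- over Ifnar+/-, after adding 0.5 UMI. Intervals are exact 95% intervals of counting error only. Those of ratios take each UMI as independent and are too narrow where few cells hold most of the UMI. A gene was read as apart at 2-fold if it had at least 50 UMI in at least 1 of the libraries. The cells held 136311830 gene UMI in Ifnar-/- and 177371801 in Ifnar+/-, with medians of 36534 and 32316.5 UMI per cell. Only 6 cell barcodes were shared by the libraries. Where RNA per cell and the mixture of cells could both differ, a ratio of whole libraries cannot tell them apart.

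Of 14130 genes, 319 (2.26%) were at least 2-fold lower and 638 (4.52%) at least 2-fold higher in Ifnar-/- cells. The larger differences were mostly downward, with 45 genes at least 10-fold lower and 19 at least 10-fold higher. The median over all genes was a log2 ratio of 0.15, with 72.9% of genes above 0 and 27.1% below. Scaling by TMM or median-of-ratios factors lowered every ratio by 0.17 or 0.19. Lower genes made up 33.3% of those 2-fold apart as scaled here, 50% with TMM factors (371 lower and 371 higher) and 52.7% with median-of-ratios factors (381 lower and 342 higher). List medians are therefore read against 0.15.

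The receptor genes gave little difference in RNA level. Ifnar1 (chr16:91485032-91510523 in the mm10 build) had 4002 UMI in Ifnar-/- and 5527 in Ifnar+/- cells, or 29.4 and 31.2 CPM. Its log2 ratio was -0.09 (-0.14 to -0.03). Ifnar2, the neighbouring gene of the other chain, had 87.0 and 94.6 CPM. Reads of 3′ libraries come from the end of a transcript, so these levels do not check an allele that alters another part of the gene. Of 36 tested genes within 2.5 Mb of Ifnar1, 0 were 2-fold lower and 1 was 2-fold higher, with a median of 0.01.

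Downstream of the receptor, a kinase and the interferon regulatory factors differed from each other. Jak1 was at 142 CPM in Ifnar-/- and 124 in Ifnar+/- cells. Irf9 was at 9.99 against 47.6 CPM. Irf7, the factor that amplifies interferon production and response, was at 2.48 against 74.2 CPM, a log2 ratio of -4.90 (-5.06 to -4.75). Irf8, a factor of monocyte and dendritic cell development, was lower at -1.35, whereas Irf2, a repressor of interferon-responsive genes, was at 0.36. In all, 4 of 14 receptor and signalling genes were 2-fold lower and 0 higher, with a list median of -0.10.

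Antiviral effectors held the lowest ratios of all. In this list 34 of 51 tested genes were 2-fold lower, 0 were higher, and the median was -1.50. Oas1g, a synthase of the 2-5A messenger that activates RNase L, had 0 UMI in Ifnar-/- and 587 in Ifnar+/- cells. Against a floor of 3 UMI it was at least 150-fold lower. Oas2, of the same enzyme family, had 4 against 2524 UMI. Ifi44, an interferon-induced antiviral gene, had 16 against 5393 UMI. These RNAs were near absent from the Ifnar-/- cells and plainly present in the Ifnar+/- cells. Rtp4, an inhibitor of viral RNA replication, had 135 against 20708 UMI, a log2 ratio of -6.88 (-7.14 to -6.64). Ifit1, which binds foreign RNA ends, had 69 against 5726 UMI. Rsad2 (viperin) had 422 against 8758 UMI. Members of the Oas, Ifi200, Ifit, Slfn and Gbp families resemble each other, so reads may have been split or lost between copies.

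The Ifitm genes, which encode membrane proteins that block viral entry, stood apart from each other. Ifitm3 was at 489 CPM in Ifnar-/- against 1138 in Ifnar+/- cells, a log2 ratio of -1.22 (-1.23 to -1.21). Ifitm2 was at 659 against 686 CPM. Ifitm1 was at 1397 against 992 CPM, a log2 ratio of 0.49 (0.48 to 0.50). Ifitm6, outside the lists and named after its values were seen, had 36 against 338 UMI. Of these 4 genes, Ifitm3 and Ifitm6 were thus lower, Ifitm2 was nearly level and Ifitm1 higher.

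Among feedback regulators the split was by gene. Usp18, the protease that removes ISG15 and restrains the receptor, had 19 UMI in Ifnar-/- and 2755 in Ifnar+/- cells. Isg15, the ubiquitin-like modifier itself, had 432 against 19983 UMI. Its conjugating enzyme Ube2l6 was at a log2 ratio of -1.11. Socs1, an inhibitor of JAK kinases, was at -0.08. Socs3, which chiefly restrains IL-6 family signalling, was higher at 9.58 against 4.25 CPM, a log2 ratio of 1.17 (1.04 to 1.31). The list had 3 of 11 genes 2-fold lower and 1 higher, with a median of -0.08; with median-of-ratios factors Socs3 was no longer 2-fold higher.

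Sensors of foreign nucleic acid were also lower, 10 of 16 at 2-fold, with a median of -1.47. Zbp1, a sensor of Z-form nucleic acid, had 16 UMI against 1073. Ddx58 (RIG-I), a sensor of viral RNA, was at 17.1 against 43.5 CPM. Of the adaptors, Tmem173 (STING) stood at -0.27, Myd88 at 0.03 and Mavs at 0.15; all 16 genes were below the median of all genes. Of the immunity GTPases, which attack the vacuoles of intracellular microbes, 11 of 16 were 2-fold lower, with a median of -1.27. Iigp1 had 32 against 2801 UMI. Irgm1 was at 23.9 against 59.1 CPM. Gbp5 and Gbp8 were higher, at 0.31 and 0.49.

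Over the regulators, effectors, sensors and GTPases together, 58 of 94 tested genes were 2-fold lower, 35 at least 4-fold and 25 at least 10-fold, with a median of -1.23. No type I, II or III interferon gene of a list of 14 reached 50 UMI in either library. The ligand list summed to 0.0807 CPM in Ifnar-/- and 0.101 in Ifnar+/- cells.

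**Figure D1:**
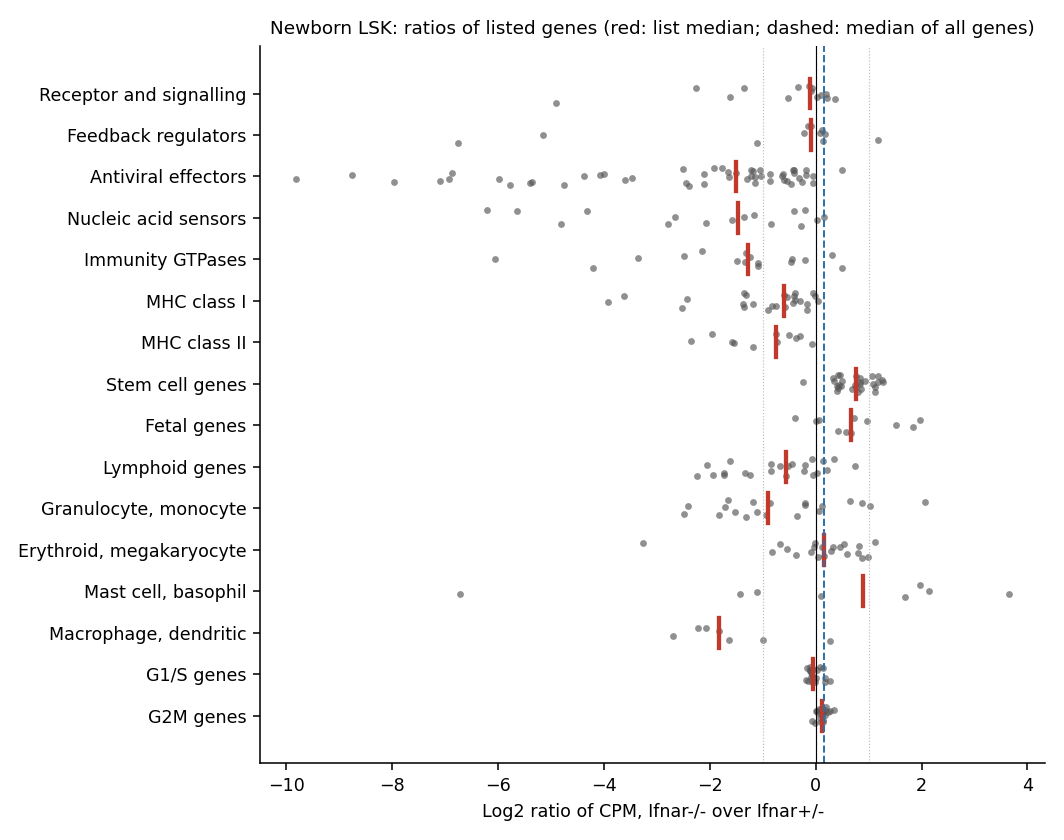
Each dot is a listed gene with at least 50 UMI in a library and the horizontal axis is its log2 ratio of CPM, Ifnar-/- over Ifnar+/-; vertical placement within a list is random. The red bars are list medians, the lowest of them -1.83 for macrophage and dendritic cell genes, and genes with 0 UMI in Ifnar-/- cells (Oas1g, Gzmb) are drawn at the value given by the added 0.5 UMI.

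MHC class I molecules display peptides from inside the cell and are themselves raised by interferon. Of 25 class I presentation genes, 9 were 2-fold lower, and 24 of 25 were below 0, with a median of -0.59. B2m, the invariant light chain, was at 362 CPM in Ifnar-/- and 822 in Ifnar+/- cells, a log2 ratio of -1.18 (-1.20 to -1.17). The heavy chains H2-K1 and H2-D1 were at 158 against 403 and 147 against 376 CPM. Tap1, which carries peptides into the endoplasmic reticulum, was at -1.38, and the transactivator Nlrc5 at -3.62. The inducible proteasome subunits Psmb8 and Psmb9 stood at -0.83 and -0.76. The 14 constitutive proteasome subunits had a median of -0.19, with 0 at 2-fold. At 7500 UMI per cell, 92.2% of Ifnar-/- and 98.8% of Ifnar+/- cells held a B2m UMI. Free RNA held B2m at 351 and 787 CPM, near its level in the cells, and the part of free RNA in these shares was not tested.

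Class II genes are normally used by antigen-presenting cells, and the RNA of some of them lay in few cells. H2-Aa had 721 UMI in Ifnar-/- and 3665 in Ifnar+/- cells, a log2 ratio of -1.97 (-2.08 to -1.85). These UMI lay in 46 and 107 cells. Of the H2-Aa UMI of Ifnar+/- cells, 98.5% were in 1% of the cells. Cd74, the class II chaperone, had 88.4% of its UMI in 1% of Ifnar+/- cells and 49.9% in 1% of Ifnar-/- cells. H2-DMa, which helps to load class II peptides, was spread over 2338 Ifnar-/- and 3974 Ifnar+/- cells and stood at -0.74 (-0.79 to -0.69). In all 5 of 11 class II genes were 2-fold lower and 11 of 11 were below 0, with a median of -0.75. Genes of macrophages and dendritic cells were lower too, 5 of 7 at 2-fold with a median of -1.83; the list's summed level was 105 against 304 CPM, most of it Bst2, which is also on the antiviral list. The complement gene C1qc, a macrophage gene, had 11 against 96 UMI. The part of a few such cells in the class II difference was not tested.

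Some of the lower genes were near each other in the genome. Of 309 lower genes with a position, 111 fell in 25 runs of 3 or more lower genes with gaps of at most 500 kb. The share that other genes would give was not computed. Runs were set by the lower genes and begin and end with one. The shares of lower genes within them are therefore raised by the way they were set. The Ifi200 cluster on chr1:173468485-174031755 had 10 of 11 tested genes lower, including Ifi213 (1 UMI against 1109), Ifi206 (22 against 3061) and Ifi207 (0 against 149, at least 38.2-fold lower). The Ifit genes of chr19:34583119-34662981 and the Phf11 genes of chr14:59276913-59393512 were lower in 4 of 4 each. The Irgm1 and Tgtp genes of chr11:48865245-49187089 had 8 of 10 lower. Other runs held mostly genes that were not 2-fold lower, such as 6 of 29 on chr17:33919289-34316674 with H2-K1 and Tap1, and 5 of 26 on chr14:55603985-56262334 with Irf9. Some runs were not of interferon-list genes, such as Ccl5, Ccl9 and Ccl3 on chromosome 11 and the 3 C1q genes on chromosome 4.

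A pair of lower genes stood outside this pattern. Mid1, a microtubule-associated ubiquitin ligase whose mouse gene spans the pseudoautosomal boundary of chromosome X, had 21 UMI in Ifnar-/- and 1081 in Ifnar+/- newborn LSK cells. The predicted gene Gm47283 had 188 against 22642 UMI. In newborn LK cells Mid1 had 7 against 1641 UMI and Gm47283 249 against 27765. At P14 the LSK libraries did not show this: Mid1 had 604 and 677 UMI and Gm47283 15617 and 14402. Both newborn Ifnar-/- libraries were thus low and both P14 LSK libraries level, whereas Rtp4 and Isg15 were lower in all 3 comparisons. The labels give no strain, and other differences between the newborn mice cannot be told apart from the Ifnar genotype.

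The interferon UMI of single cells were read after each cell was thinned to 7500 UMI. The median cell held 34 UMI of the effector, sensor, GTPase and regulator lists in Ifnar-/- and 50 in Ifnar+/-. The 5th and 95th percentiles were 17 and 56 against 26 and 90, and the highest cell held 87 against 398. The distributions overlapped, with 10.6% of Ifnar-/- cells at or above the Ifnar+/- median. Ifitm1, Ifitm2 and Ifitm3 gave 59.6% of the sum in Ifnar-/- and 43.0% in Ifnar+/- cells. Without them the medians were 14 and 28, and the 10th to 90th percentiles were 8 to 20 and 17 to 47. The lower level was thus found across the cells and not in a tail alone.

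Single genes separated the libraries further. At 7500 UMI, Rtp4 was found in 0.691% (0.444 to 1.03) of Ifnar-/- and 54.9% (53.5 to 56.2) of Ifnar+/- cells. Without thinning the shares were 3.08% and 87.9%. Isg15 was found in 2.82% (2.3 to 3.43) and 47.7% (46.3 to 49.1). In barcodes of at most 100 UMI, which hold free RNA, Rtp4 stood at 0.756 CPM in the Ifnar-/- library and 106 in the Ifnar+/- library.

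**Figure D2:**
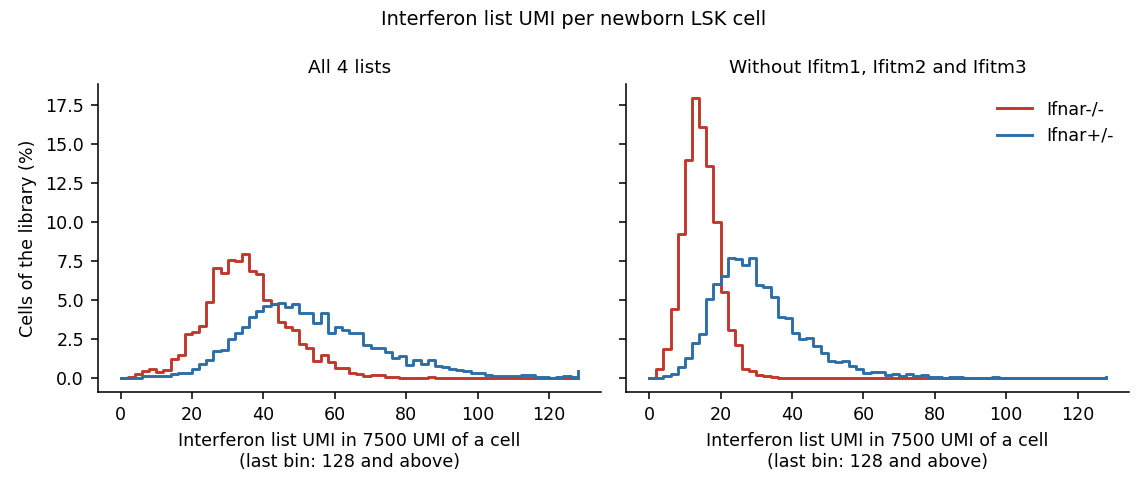
The horizontal axis is the UMI of the 4 interferon lists in 7500 UMI of a cell and the vertical axis the percent of a library's cells in bins of 2 UMI; the left plot sums all lists and the right one leaves out Ifitm1, Ifitm2 and Ifitm3. The Ifnar-/- curve (red) peaks lower than the Ifnar+/- curve (blue) in both, with medians of 34 and 50 on the left and 14 and 28 on the right.

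The cells of each library were put in 4 groups of similar size by this sum. From the lowest to the highest group of Ifnar+/- cells, the share with a Mecom UMI went from 15.6% to 55.0% and that with an Mki67 UMI, a gene of dividing cells, from 68.5% to 28.3%. Ifnar-/- cells had the same order, with Mecom in 43.5% of the lowest and 80.7% of the highest group and Mki67 in 71.8% and 23.4%. Median depth was lower in the highest group, at 22616 UMI against 40846 in Ifnar+/- cells. In Ifnar-/- cells it was 28132 against 46496 UMI. For Ly6a the span was wider in Ifnar+/- cells, where a UMI was in 21.1% of the lowest and 61.8% of the highest group. The shares of Ifnar-/- cells were 16.5% and 28.7%. With Ifitm1, Ifitm2 and Ifitm3 left out of the sum the spans for Mecom were narrower, 22.4% to 44.2% in Ifnar+/- and 50.4% to 73.0% in Ifnar-/- cells. These are descriptions over the cells of 1 library each, and the order is that of 7500 UMI drawn from every cell.

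Genes of blood stem cells were higher in Ifnar-/- LSK cells. Of 29 tested stem cell genes, 28 were above the median of all genes, 8 were 2-fold higher and 0 lower, with a list median of 0.77. With TMM and median-of-ratios factors 4 and 2 genes were 2-fold higher. Mecom, a transcription factor needed to maintain stem cells, was at 158 CPM in Ifnar-/- and 65.5 in Ifnar+/- cells, a log2 ratio of 1.27 (1.23 to 1.30). Procr, which encodes the stem cell surface protein CD201, was at 53.8 against 23.7 CPM. Mllt3, a regulator of stem cell self-renewal, was at 134 against 61.4 CPM, and the homeobox gene Hoxb5 at 5.70 against 2.40 CPM. Hlf, a stem cell transcription factor, was at 478 against 268 CPM, a log2 ratio of 0.84. The gap was smaller for Meis1 (0.45) and Hoxa9 (0.34), which early progenitors also express.

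The share of cells in which these genes were found differed in the same direction. At 7500 UMI, a Mecom UMI was in 61.8% (60.1 to 63.4) of Ifnar-/- and 34.5% (33.2 to 35.8) of Ifnar+/- LSK cells. Without thinning the shares were 89.5% and 63.7%. Hlf was found in 90.3% and 71.0%, and Procr in 32.6% and 17.6%. In newborn LK cells, sorted without Sca1, the shares with a Mecom UMI were 6.24% and 8.73%, with median depths of 37733 and 46231 UMI before thinning. The LSK and LK pairs therefore stood in opposite order. In free RNA of the LSK libraries Mecom stood at 130 CPM in Ifnar-/- and 61.5 in Ifnar+/-, the same order as in the cells, and the part of free RNA in the shares was not tested. The sort kept cells by Sca1, and Ly6a, its gene, was at 30.8 against 75.9 CPM in LSK cells (log2 ratio -1.30, -1.35 to -1.25).

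Imprinted and growth genes of fetal tissue were among the higher genes. H19, an imprinted noncoding RNA, was at 66.3 CPM in Ifnar-/- and 18.5 in Ifnar+/- cells, a log2 ratio of 1.84 (1.78 to 1.90). Its neighbour Igf2, a fetal growth factor, was at 5.82 against 1.48 CPM. Plagl1, a regulator of an imprinted gene network, was at 2.95 against 1.03 CPM. Cdkn1c, an imprinted cell-cycle inhibitor of quiescent stem cells, was at 80.8 against 38.7 CPM. Other genes of the fetal list stood elsewhere: Hmga2 at 0.00, Lin28b at 0.07 and Igf2bp3 at -0.39. The fetal list had 3 of 11 genes 2-fold higher, 0 lower and a median of 0.67. H19 was found in 29.3% of Ifnar-/- and 11.6% of Ifnar+/- cells at 7500 UMI.

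Lymphoid genes were lower, 8 of 23 at 2-fold, with a median of -0.57. Il7r, the receptor of the lymphoid growth factor IL-7, was at 2.24 CPM in Ifnar-/- and 10.7 in Ifnar+/- cells, a log2 ratio of -2.25 (-2.43 to -2.08). It was found in 65 of 3471 and 396 of 5122 cells. Ighm, the immunoglobulin heavy chain, was at 17.2 against 71.5 CPM. Not every lymphoid gene was lower. Flt3, the receptor of early multipotent progenitors, was at 120 against 125 CPM, Mef2c at 474 against 430 (a log2 ratio of 0.14, below 0 with either other scaling), and Ltb, a lymphotoxin chain, at a log2 ratio of 0.74.

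Genes of granulocytes and monocytes were mostly lower, 9 of 20 at 2-fold and 2 higher, with a median of -0.90. Mpo, the peroxidase of early myeloid cells, was at 112 CPM in Ifnar-/- and 367 in Ifnar+/- cells, a log2 ratio of -1.71 (-1.74 to -1.69). Plac8 was at 127 against 677 CPM. Csf1r, the receptor of the macrophage growth factor, was at 2.94 against 10.4 CPM. The 2-fold higher genes were Ms4a3 at 4.57 against 2.24 CPM, no longer 2-fold with either other scaling, and Elane, the neutrophil elastase. Elane was at 25.9 against 6.17 CPM, and 98.0% of its Ifnar-/- UMI were in 10 cells. At 7500 UMI it was found in 0.490% and 0.80% of cells, the opposite order to its summed level. The chemokine genes Ccl9 and Ccl3 were lower at -2.3 and -1.49.

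Erythroid and megakaryocyte genes had a median of 0.16, level with all genes, with 1 of 21 lower and 1 higher at 2-fold; the other scalings put it at -0.00 and -0.03. The haemoglobin gene Hbb-bt was at 1791 CPM in Ifnar-/- and 822 in Ifnar+/- cells, a log2 ratio of 1.12 that was 0.96 and 0.93 with these scalings, so 0 genes were then 2-fold higher. Free RNA held it at 1818.5 and 849 CPM, and the part of free RNA in its level was not tested. No gene of the G1/S and G2M lists was 2-fold apart. The 20 G1/S genes had a median of -0.06 (-0.22 and -0.25 with TMM and median-of-ratios factors), with 17 of them below the median of all genes, and the 20 G2M genes 0.12 (-0.05 and -0.07). At 7500 UMI, Mki67 was found in 49.8% of Ifnar-/- and 49.4% of Ifnar+/- cells. Cdk6, a kinase of cell-cycle entry, was at -0.68 and the immediate-early gene Egr1 at 1.13.

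Regulators of stem cell rest and of stress responses gave few 2-fold differences. Of 19 quiescence regulators 0 were 2-fold lower and 2 higher, Egr1 and Cdkn1c, with a median of 0.25; with TMM or median-of-ratios factors 0 were 2-fold higher. Myc, the growth regulator, was at 53.9 CPM in Ifnar-/- and 76.7 in Ifnar+/- cells, and its relative Mycn at 102 against 61.6 CPM. Of 19 targets of p53, 1 was lower and 2 higher, with a median of 0.33; with median-of-ratios factors 0 were 2-fold higher. Zmat3 was at 8.25 against 3.64 CPM, whereas Cdkn1a, the best known target, was at -0.05. Of 21 targets of the stress factor ATF4, 0 were lower and 2 higher, Trib3 at 1.38 and Vldlr at 1.03, with a median of 0.14 (-0.03 and -0.05 with TMM and median-of-ratios factors, where Vldlr was no longer 2-fold higher).

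Cell death genes had 0 of 16 genes 2-fold apart and a median of 0.00, or -0.16 and -0.19 with these other factors. Casp1, the inflammasome protease, was lowest of them at -0.61 and Cd274 (PD-L1), which interferon can induce, highest at 0.51. Cytokine receptors had 2 of 25 genes lower, Il7r and Csf1r, and 1 higher, Il1rl1, with a median of 0.14 (-0.02 and -0.05). Without the few cells with mast cell or neutrophil UMI, described below, Il1rl1 was no longer higher. Among inflammatory mediators 4 of 15 were lower, with a median of -0.09. All 4 were chemokine genes, Ccl5 and Cxcl10 beside the Ccl9 and Ccl3 given above, and Ccl5 lay in 10 of the Ifnar-/- and 38 of the Ifnar+/- cells. The NF-kB gene Relb and the NF-kB inhibitor Tnfaip3 stood at 0.88 and 0.78.

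Genes listed as markers of other cells that the sort could hold differed by list, and some of them were found in many LSK cells. The 9 hepatocyte genes, 8 of them below the median of all genes, had a median of -0.27 with 0 at 2-fold, and summed to 44.0 against 48.8 CPM. The 6 B cell genes, all below the median of all genes, had a median of -0.60 with 0 at 2-fold, and summed to 56.9 against 67.3 CPM. The 3 tested genes of T and NK cells stood at -0.95 (Nkg7), -0.41 (Lck) and 1.03 (Klrb1c). Of 8 endothelial genes 4 were 2-fold higher, with a median of 0.91; with TMM and median-of-ratios factors 2 and 1 were. Cldn5, a junction protein, had 697 against 307 UMI, and Pecam1, which blood cells also express, was at 0.02. The pair of stromal genes tested stood apart, Pdgfrb with 650 against 2745 UMI and Col1a2 with 234 against 115. Some listed genes were spread over many cells and do not mark a few foreign ones. Pdgfrb was found in 455 Ifnar-/- and 1608 Ifnar+/- cells and Cd79b in 2669 and 3813. Cd79a lay in 31 and 100 cells. The part of cells of other types in these and the other values was not tested.

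Among the genes with the highest ratios were mast cell genes, with most of their UMI in a small number of cells. Mcpt4, Cma1 and Tpsb2 are proteases of mast cell granules and stood outside the lists. The mast cell, basophil and eosinophil list went both ways, with 4 of 8 tested genes 2-fold higher and 3 lower. The lower ones were Ms4a2, Mcpt8 and Gzmb. Mcpt4 had 1405 UMI in Ifnar-/- and 23 in Ifnar+/- cells, a log2 ratio of 6.28 (5.72 to 6.98). A single Ifnar-/- cell held 700 of these UMI and a single Ifnar+/- cell 22, which the interval does not take in. Cma1 had 12447 against 809 UMI and Tpsb2 8418 against 514. Of their summed UMI in the Ifnar-/- library, 98.9% lay in 31 cells that held at least 20 each, and 0 cells lay near that bound. Such cells were 0.893% (0.608 to 1.27) of Ifnar-/- and 0.0976% (0.0317 to 0.228) of Ifnar+/- cells. They had a median of 9961 gene UMI in the Ifnar-/- library, against 36534 over all its cells. Neutrophil genes behaved alike: 94.8% of the S100a8, S100a9 and Stfa1 UMI of the Ifnar-/- library were in 5 cells, and 0 such cells were in the Ifnar+/- library, which allows a share of up to 0.0720%.

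Without these 36 Ifnar-/- and 5 Ifnar+/- cells, a choice made after seeing the data, 335 genes were 2-fold lower and 602 higher. The neutrophil genes S100a8 and S100a9 then stood at 0.82 and 0.49, and Stfa1 at 0.92. Cells were left out by the UMI of these genes or of Mcpt4, Cma1 and Tpsb2. The fall of the neutrophil genes therefore follows from the choice. Prss34, a mast cell and basophil protease, went from 5.22 to -0.51. Elane went from 2.07 to 0.72. Cpa3, Hdc and Il1rl1, all genes of mast cells and basophils, went from 1.97, 2.14 and 1.69 to -1.70, -0.23 and -0.10. With every cell thinned to 7500 UMI instead, which gives each cell the same weight, Cpa3 and Hdc stood at 3.5 and 3.36. Mast cell genes still had the highest ratios at low counts, with 90 against 3 UMI for Tpsb2, 84 against 3 for Tph1 and 127 against 12 for Cma1. Their log2 ratios were 5.08, 4.98 and 3.74, and that of Tpsb2 was thus above its 4.41 over all cells. In the Ifnar-/- cells left, Tpsb2 and Cma1 were at 0.663 and 0.936 CPM. Free RNA held Tpsb2 at 179 CPM in Ifnar-/- and 6.74 in Ifnar+/-, and Cma1 at 194 and 17.8 CPM. The part of free RNA in these counts was not tested. Below these mast cell genes stood genes with more UMI. Meg3, an imprinted noncoding RNA, had 16075 against 5407 UMI, a log2 ratio of 1.96. Rian, from the same imprinted locus, had 2021 against 719 UMI. Igf1, the growth factor, had 2590 against 970 UMI, and H19 9028 against 3281. Meg3, Rian and Igf1 were chosen after their values were seen.

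Cells were next compared within 4 kinds, set by whether Mecom and Flt3 were found in 7500 UMI of the cell. RNA ratios within kinds were taken from these thinned cells, with no mast cell or neutrophil cells left out. Cells with Mecom and without Flt3 were 31.5% of Ifnar-/- and 17.9% of Ifnar+/- cells. Those with both were 30.3% and 16.6%. Cells with Flt3 alone were 21.5% and 37.5%, and those with neither 16.7% and 28.0%. The median of the interferon lists was nearly the same in each kind: -1.20, -1.26, -1.36 and -1.30 in this order. The MHC class I medians were also close, from -0.60 to -0.49.

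Medians of some other lists were further apart between kinds. The members tested differ between kinds, since each needed 50 UMI there, with 20 to 25 stem cell, 15 to 20 lymphoid and 7 to 17 granulocyte and monocyte genes. Mecom and Flt3 were left out of the lists here. The stem cell medians were 0.21 in cells with Mecom alone, 0.47 with both, 0.78 with Flt3 alone and 0.47 with neither. The whole-library median was 0.77, over 29 genes with Mecom among them and from counts that were not thinned. The lymphoid medians were -0.03, -0.32, -0.61 and -0.17. For granulocyte and monocyte genes the medians were -0.17, -0.17, -1.06 and -0.15, against -0.90 over 20 genes in the whole library, again not thinned. In cells with neither gene 5 of 17 were 2-fold lower and 3 higher, among them Elane with 583 against 163 UMI. Mast cell and neutrophil RNA lay mostly in this kind, with 8108 against 371 UMI for Cma1 and 291 against 3 for Stfa1. The part of such cells in its medians was not tested. Plac8 and Mpo were at least 2-fold lower in each kind. Plac8 stood between -2.33 and -1.79 and Mpo between -1.72 and -1.02. Ly6a was at -1.61, -1.75, -1.26 and -0.57, short of 2-fold in cells with neither gene. H19 was at 0.89, 1.29, 1.91 and 1.75, short of 2-fold in cells with Mecom alone.

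**Figure D3:**
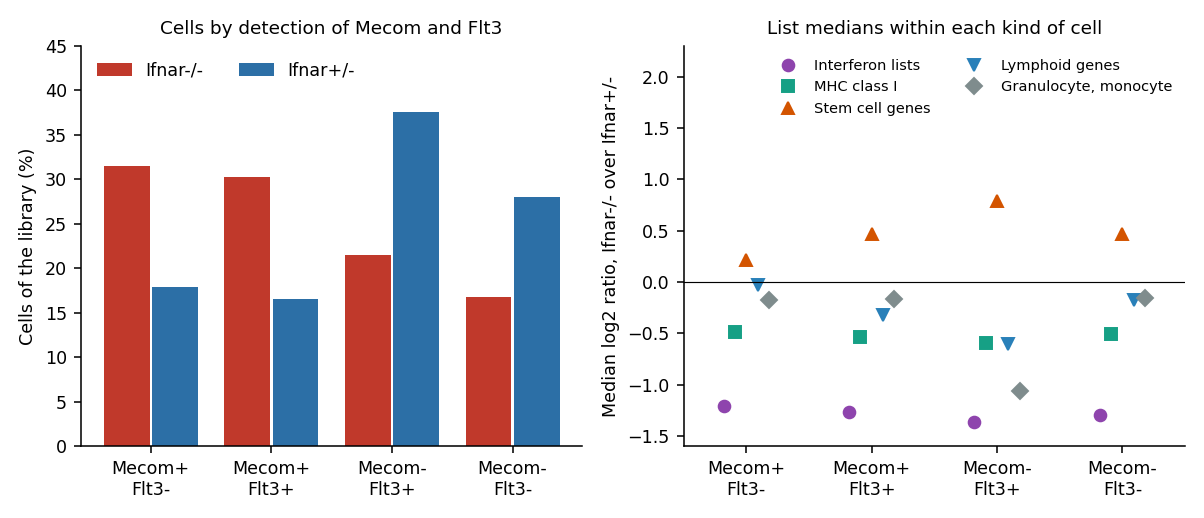
Left, bars give the percent of each library's cells by whether Mecom and Flt3 were found in 7500 UMI; right, points give the median log2 ratio of 5 lists within each kind of cell. Cells with Mecom are the larger share in Ifnar-/- and cells without it in Ifnar+/-, while the interferon median stays between -1.36 and -1.20.

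Surface proteins were read from the antibody tags as counts per cell. Of 10 tags, 3 had medians at least 1.5-fold apart. CD201, the product of Procr and a mark of stem cells, had a median of 98 (quartiles 45 to 183) in Ifnar-/- and 28 (14 to 56) in Ifnar+/- cells, 3.5-fold higher. CD150, the product of Slamf1 and also a stem cell mark, had 45 (19 to 155) against 21 (11 to 53), 2.14-fold higher. CD48, which rises as stem cells become progenitors, had 3013 against 4648.5, so the Ifnar+/- median was 1.54-fold higher. Its quartiles were wider in Ifnar-/- cells, 690.5 to 7191.5 against 2333.5 to 6633. Of Ifnar-/- cells, 18.1% lay above the 90th percentile of Ifnar+/- cells, so the lower median came with more cells at both ends. With cells down to 2000 gene UMI taken in, which adds 1015 Ifnar-/- and 29 Ifnar+/- barcodes, CD150 was 1.33-fold and CD201 2.29-fold higher, and CD48 was 3.51-fold higher in Ifnar+/- cells. CD127 and CD16_32 then passed the bound too, 1.62-fold and 1.68-fold higher in Ifnar+/- cells. With at most 5% mitochondrial UMI the CD48 gap was 1.39-fold, short of the bound.

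CD117, the Kit receptor used for the sort, had a median of 1003 against 687, 1.46-fold higher and just short of the 1.5-fold bound. Kit RNA was at 193 against 157 CPM. CD34 had 227 against 206.5, and CD41 had 14 in both. CD135, the Flt3 protein, had 28 against 31. CD127, the Il7r protein, had 17 against 21. Above the Ifnar+/- 90th percentile of CD127 lay 5.50% of Ifnar-/- and 9.74% of Ifnar+/- cells. Il7r RNA differed 4.76-fold in its sum and was found in only 65 Ifnar-/- and 396 Ifnar+/- cells. The CD127 medians were 17 against 25 in cells with Flt3 alone and 17 against 22 with Mecom and Flt3. They were 17 against 17 with Mecom alone and 16 against 19 with neither gene. Why tag and RNA differed to unlike degrees was not tested. The median of CD16_32 was 48 against 62 and that of the tag named SA_PE 441 against 458. The labels do not say what SA_PE binds. Its upper range differed more than its median. Above the Ifnar+/- 90th percentile of SA_PE lay 3.89% of Ifnar-/- and 10.0% of Ifnar+/- cells. All tags of a cell summed to a median of 5418 in Ifnar-/- and 6409.5 in Ifnar+/- cells, most of it CD48. As a share of a cell's tags, CD48 was 1.25-fold higher in Ifnar+/- and CD117 1.70-fold higher in Ifnar-/- cells, so these 2 changed sides of the bound.

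The CD201 difference was present in each kind of cell. Its medians were 141 against 52 in cells with Mecom alone, 116 against 44 with both, 54 against 21 with Flt3 alone and 61 against 22 with neither. CD117 was also higher in each, from 956 against 630 to 1109 against 742. CD48 was lower in cells with Mecom, 1052 against 1582 without Flt3 and 2221 against 3133 with it. In cells with Flt3 alone the order turned, with 6453 against 5161. In cells with neither gene it was 5198 against 5529. The kinds were not alike in other stem cell genes: in cells with Flt3 alone Procr RNA was at 39.0 against 17.1 CPM.

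**Figure D4:**
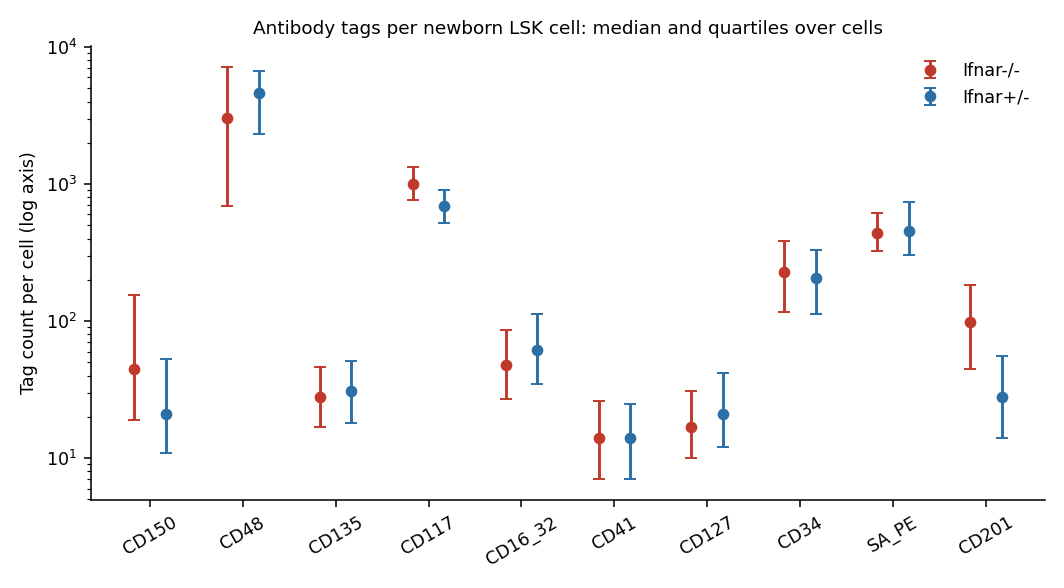
Points are the median tag count per cell on a log axis and bars the quartiles over cells, for the 10 antibody tags in Ifnar-/- (red) and Ifnar+/- (blue) cells. CD201 and CD150 are higher in Ifnar-/- cells, and CD48 is lower with wider quartiles.

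The closest comparisons in the series, newborn LK cells and P14 LSK cells, were read for the same genes. They are 1 library a side as well, so no difference between comparisons was tested. In LK cells 161 of 14030 genes (1.15%) were 2-fold lower and 24 (0.171%) higher. In P14 LSK cells 73 of 13517 genes (0.54%) were lower and 18 (0.133%) higher. Of the 319 genes lower in newborn LSK cells, 291 were tested in LK cells, where 99 were 2-fold lower and 85 above 0, as were 42.3% of all genes tested there. In P14 LSK cells 271 were tested, 59 were 2-fold lower and 24 above 0, where 54.2% of all genes were above 0. Of the 638 higher genes, LK cells tested 387 and had 5 of them 2-fold higher and 245 below 0, where 57.7% of all genes were below 0. P14 LSK cells tested 397 and had 5 of them 2-fold higher and 84 below 0, against 45.8% of all genes.

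By list, some medians were negative in each comparison and others were not. Antiviral effectors had medians of -1.50 in newborn LSK, -1.95 in newborn LK and -0.53 in P14 LSK cells. Sensors had -1.47, -1.12 and -0.32, immunity GTPases -1.27, -2.07 and -0.62, and class I genes -0.59, -0.43 and -0.36. Stem cell genes had 0.77, -0.15 and 0.15. Granulocyte and monocyte genes had -0.90, 0.17 and -0.06, and class II genes -0.75, 0.12 and -0.16. The values for mast cell, basophil and eosinophil genes were 0.89, -0.06 and -0.55. The first is a median of 8 genes, of which 4 were 2-fold higher and 3 lower. Of the higher ones Cpa3, Hdc and Il1rl1 turned lower without the 36 Ifnar-/- and 5 Ifnar+/- cells left out above. The CD201 median was 3.5-fold higher in newborn LSK and 1.69-fold higher in P14 LSK cells. In LK cells it was 0.714 of the Ifnar+/- value, at low counts of 5 against 7.

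**Figure D5:**
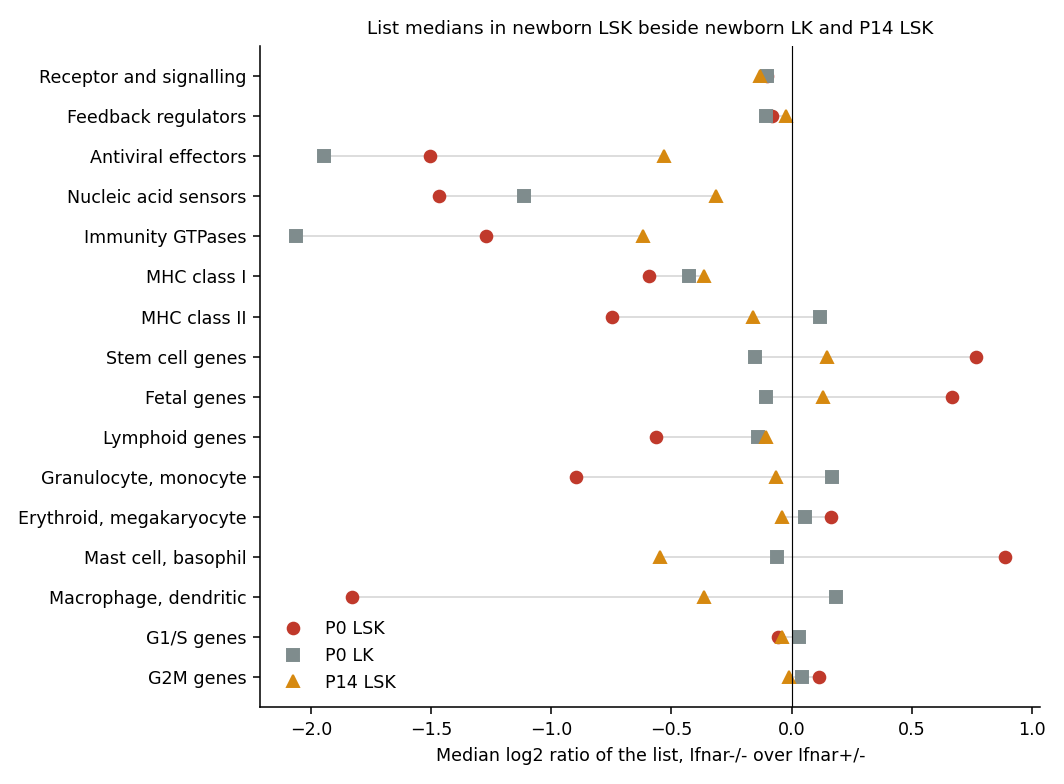
Points are the median log2 ratio of each list, Ifnar-/- over Ifnar+/-, in newborn LSK (circles), newborn LK (squares) and P14 LSK cells (triangles). Antiviral effectors lie below 0 in all 3, while stem cell genes are at 0.77 in newborn LSK and -0.15 in newborn LK cells.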

How the data were processed

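The deposited values were counts: unnormalised UMI per feature and barcode, 32285 genes and 10 antibody tags, without a cell filter. The submitters' processing notes name Cell Ranger 6.0.1 and mm10; Cell Ranger 4 is the version written in the matrix header, per the file headers. Per the labels, libraries were 10x Chromium 3′ version 3.1. Cells needed 7500 gene UMI and at most 10% mitochondrial UMI; doublets were kept. UMI were summed over cells and scaled to library totals. Ratios have exact conditional binomial 95% intervals and shares exact Clopper-Pearson 95% intervals. The ratio calculation was tested on simulated data with independent counts, so that test does not cover UMI that share a cell. Genes with 0 UMI were set against a floor of 3. Cells were thinned to 7500 UMI without replacement. Positions are those of RefSeq for GRCm38 (mm10); of 14130 genes, 13318 matched.

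Lists and members were chosen with earlier results of these data known. Genes were named as the 15 highest and 15 lowest by the near bound of the interval without sex genes, likewise outside all lists, the 3 most abundant and 3 largest of each list, Ifnar1, Ifnar2, Ly6a, Kit and genes of the tagged proteins; other list members were named as examples after their values were seen. Alternatives covered cell calling, doublets (Scrublet in scanpy 1.11.5), scaling (edgeR 4.0.16), pseudocount, free RNA, depth and filters. Some items are not reported here.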

Additional observations from a re-analysis of the deposited data

Results flagged for a closer look

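The mast cell and neutrophil genes stood on opposite sides in different pairs of libraries, and these differences between comparisons were not tested. Mcpt4 had a log2 ratio of 6.28 in newborn LSK cells, with 1405 against 23 UMI. It had 4 against 484 UMI in newborn LK and 9 against 235 in P14 LSK cells. Tpsab1, a further mast cell tryptase, was at 3.71 in newborn LSK and -1.44 in newborn LK cells. Cma1 at 4.32, Tpsb2 at 4.41 and Prss34 at 5.22 were lower in P14 LSK cells, with 8 against 408, 4 against 171 and 0 against 230 UMI. Stfa1, a neutrophil cystatin, was at 5.74 in newborn LSK cells and had 65 against 365 UMI in P14 LSK cells. Cells with at least 20 UMI of Mcpt4, Cma1 and Tpsb2 numbered 31 and 5 in newborn LSK Ifnar-/- and Ifnar+/-, 7 and 15 in newborn LK, and 0 and 1 in P14 LSK libraries.

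In newborn LK cells, the 3 antibody tags at least 1.5-fold apart in newborn LSK cells stood on the other side, again untested. The fold of medians, Ifnar-/- over Ifnar+/-, was 2.14 for CD150 in newborn LSK and 0.833 in newborn LK cells. For CD201 it was 3.5 and 0.714. The LK medians were low, 15 against 18 counts for CD150 and 5 against 7 for CD201. As shares of all tags the LK folds were 0.926 and 0.881. In newborn LK cells SA_PE was the tag furthest apart, with medians of 20 against 41, a fold of 0.488. Its fold in newborn LSK cells was 0.963. In P14 LSK cells CD150 (1.33) and CD201 (1.69) stood on the same side as in newborn LSK cells. For CD48 the fold of medians was 0.648 in newborn LSK cells and close to level elsewhere, 1.10 in newborn LK and 1.04 in P14 LSK cells.

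Barcodes below the cell threshold were unevenly spread. The newborn LSK Ifnar-/- library had 1015 barcodes of at least 2000 but under 7500 gene UMI and at most 10% mitochondrial UMI, against 29 in the Ifnar+/- library and 26 to 106 in the other 6. Their median was 3004 UMI. Of them 12.0% held a Cma1 UMI, and Cma1 stood at 1102 CPM, against 91.3 in the cells and 194 in free RNA. Mecom, at 158 CPM in both, and Kit, at 180 against 193 CPM, were near their level in the cells. The 29 Ifnar+/- barcodes also held much Cma1, at 1084 CPM from 172 UMI, against 4.56 CPM in the Ifnar+/- cells. Mecom stood at 145 CPM in these barcodes and 65.5 in the Ifnar+/- cells.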

How the results depend on the processing

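No paired analysis was possible because each group had 1 library. The numbers of lower and higher genes moved by more than 1.5 times with cells thinned to 7500 UMI (212 and 253), with 5 CPM added (82 and 24) and with a minimum of 10 UMI (490 and 1236). Higher genes alone moved with TMM factors (371), median-of-ratios factors (342) and a minimum of 200 UMI (300). The interferon median of -1.23 went to -0.65 with 5 CPM added and lay between -1.42 and -1.23 otherwise. The Mecom difference of 27.3 percentage points was 12.6 with a minimum of 2000 UMI and cells thinned to 2000, 20.7 at 2 UMI, 19.3 for Hlf and 15 for Procr. Tags apart numbered 2 to 4, and with a minimum of 2000 UMI CD150 was no longer among them (1.33-fold). The interferon sum per cell was 1.47-fold higher in Ifnar+/- cells, and 2-fold without the Ifitm genes. Leaving out cells with mast cell or neutrophil UMI turned Cpa3 (-1.70), Hdc (-0.23), Il1rl1 (-0.10) and Prss34 (-0.51). Of 105 named genes 2-fold apart, 94 to 101 stayed so under the scaling, thinning and cell alternatives and 51 with 5 CPM added. With 1 library a side, counting error is the only error given; genes near 50 UMI are the least certain.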
